A study of Mus musculus with 32 samples.

Results

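The 10 genes described here encode proteins of microfibrils and elastic fibres: Fbn1, Fbn2, Mfap2, Mfap4, Emilin1, Eln, Fbln1, Fbln2, Fbln5 and Efemp2. They were taken by gene name from expression tables of mouse quadriceps muscle that list 53801 gene IDs, and each name belonged to 1 gene ID. Genes that reached 1 TPM in 4 or more libraries were tested, 12817 in all, and the 10 were among them. TPM is a level scaled for transcript length and for the total of the library, so levels of different genes can be set side by side. Membership goes by gene name, but the genes were chosen with earlier results of these data known, so the counts of members set against a background below are descriptions. Fbn2 reached 1 TPM in exactly 4 libraries, all from 5-week mice, and so passed through the age at which it was highest.

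Microfibrils are thread-like polymers of fibrillins in the extracellular matrix, made by fibroblasts, smooth muscle cells and other mesenchymal cells, and they carry accessory glycoproteins along their length. Where elastin is made, tropoelastin is deposited on the microfibril scaffold with the help of fibulins and is cross-linked by lysyl oxidases, which gives an elastic fibre. Fibrillins also bind the latent complexes that hold TGFβ in the matrix. In skeletal muscle these proteins are found in the connective tissue around fibres and bundles, in tendon and in vessel walls. Collagen VI is another microfibrillar component of the same connective tissue.

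The study compared wild-type (WT) mice with mice homozygous for the knockout allele Col6a2tm1(KOMP)Vlcg (Col6a2-/-), which lack a working gene for the α2 chain of collagen VI. Per the labels, this allele was carried by a C57BL/6N strain and was crossed back to C57BL/6J for 5 generations. Col6a2+/- parents, also per the labels, gave both genotypes, so WT and Col6a2-/- mice come from a mixed background of these 2 substrains. C57BL/6N sequence linked to Col6a2 can follow the allele, and its part cannot be told apart from that of the genotype. Mice of both sexes were taken at 5 or 25 weeks of age, which gave 8 groups of 4 mice and 32 libraries, 1 for each mouse. Whole-muscle RNA came from cryosections of snap-frozen quadriceps, so levels are averages over all cell types of the tissue, and fewer cells of a type cannot be told apart from less RNA per cell. The allele is a germline knockout, so it affects every cell type. Mice are numbered 1 to 4 within a group, as their sample names are.

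Col6a2 was at 6.60 to 51.2 TPM in the WT libraries and at no more than 0.171 TPM in the 16 Col6a2-/- libraries, 4 of which list it at 0, so genotype labels and levels match in all 32 libraries. None of the defining markers of muscle fibres was at 0 in all libraries, and the summed level of 9 such markers was 19231 to 30916 TPM. Mitochondrial genes took 31.9 to 46.9% of the TPM total and the small RNA Rn7s genes 20.8 to 30.5%, so all other genes shared 28.4 to 44.2% of it. Depth inferred from the tables ran from 6.78 to 13.7 gigabases, with a mean of 11.0 ± 1.80 (SD, n = 8) in 5-week WT, 10.1 ± 2.47 in 5-week Col6a2-/-, 7.95 ± 1.33 in 25-week WT and 8.47 ± 1.38 in 25-week Col6a2-/- libraries, so it was lower in the older mice. For these 10 genes 2 libraries stood apart most. Of the 4 Col6a2-/- females at 5 weeks, female 2 was highest and female 4 lowest for all 10. Other libraries came close within their groups. At 5 weeks Col6a2-/- male 1 was highest for 8 genes, and Col6a2-/- male 4 and WT male 2 were each lowest for 8. At 25 weeks Col6a2-/- male 1 was highest for 7. Female 2 had 44.2% of its TPM outside mitochondrial and Rn7s genes and female 4 had 34.7%, and the counts of calls at 5 weeks and the correlations are given with and without them.

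Promoter sequences were looked up because the 10 genes did not all move alike: with age most fell, while Fbln1 and Fbln2 were called in neither genotype. A RefSeq table on build GRCm38.p6 held promoters for 7 of the 10 genes, and for 3 of these the 250 bases before a listed start lay outside every annotated exon. In the lines that follow, each read 5′ to 3′ on its gene's strand, capitals mark matches on either strand to CCAAT (the CCAAT box), GGGCGG (the GC box) or CAGAC (a core letter string of SMAD binding sites, the nuclear effectors of TGFβ).
Fbln1, chr15:85205699-85205948, forward strand: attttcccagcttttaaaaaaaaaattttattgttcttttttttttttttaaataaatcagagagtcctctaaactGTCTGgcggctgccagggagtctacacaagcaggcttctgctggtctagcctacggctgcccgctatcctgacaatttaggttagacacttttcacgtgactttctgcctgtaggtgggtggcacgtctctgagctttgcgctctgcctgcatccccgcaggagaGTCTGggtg
Fbln5, chr12:101819120-101819369, reverse strand: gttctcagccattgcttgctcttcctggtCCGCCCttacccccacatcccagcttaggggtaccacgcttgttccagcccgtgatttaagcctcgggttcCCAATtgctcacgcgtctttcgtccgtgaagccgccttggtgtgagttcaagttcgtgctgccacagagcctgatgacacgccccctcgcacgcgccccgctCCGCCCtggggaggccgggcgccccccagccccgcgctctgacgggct
Efemp2, chr19:5473696-5473945, forward strand: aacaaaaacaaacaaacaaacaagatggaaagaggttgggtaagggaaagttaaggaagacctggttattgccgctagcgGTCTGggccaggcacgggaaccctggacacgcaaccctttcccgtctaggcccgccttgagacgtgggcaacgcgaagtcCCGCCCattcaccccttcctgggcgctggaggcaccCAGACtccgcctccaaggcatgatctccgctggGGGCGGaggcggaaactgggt
The Fbln1 window held 2 CAGAC strings and no other match. In the Fbln5 window there were 1 CCAAT and 2 GGGCGG matches, and in that of Efemp2 there were 2 GGGCGG and 2 CAGAC matches. TATAAA and TGANTCA, the letters of the TATA box and of the AP-1 site, were searched as well and were in none of the 3. Such strings are common: among 27025 mouse promoter windows of the same length, 42.1% held CAGAC, 34.5% CCAAT, 32.9% GGGCGG, 13.0% TATAAA and 6.87% TGANTCA. A match describes letters only and is not a binding site, and no binding was measured.

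In WT muscle at 5 weeks Fbn1, the main fibrillin, had the highest level, 31.6 ± 11.8 TPM (SD, n = 8), followed by the elastin gene Eln at 12.3 ± 3.79 and by Fbln2 at 10.9 ± 0.652 TPM. Mfap4 (7.91 ± 3.05 TPM) and Fbln5 (5.41 ± 0.763 TPM) came next. Efemp2, Mfap2, Emilin1 and Fbln1 lay close together, with means from 3.29 down to 2.25 TPM, and Fbn2 was last at 0.517 ± 0.373 TPM. Fbn1 was above Eln in 8 of 8 libraries, whereas Eln was above Fbln2 in 5 of 8 and Efemp2 above Mfap2 in 4 of 8, so those 2 neighbouring pairs did not differ beyond their spread. The order at 25 weeks was another one. Fbln2 (12.0 ± 2.70 TPM) and Fbn1 (11.6 ± 4.54 TPM) then stood side by side, each above the other in 4 of 8 WT libraries, and Mfap4 and Mfap2 had dropped to places 7 and 9.

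**Figure D1:**
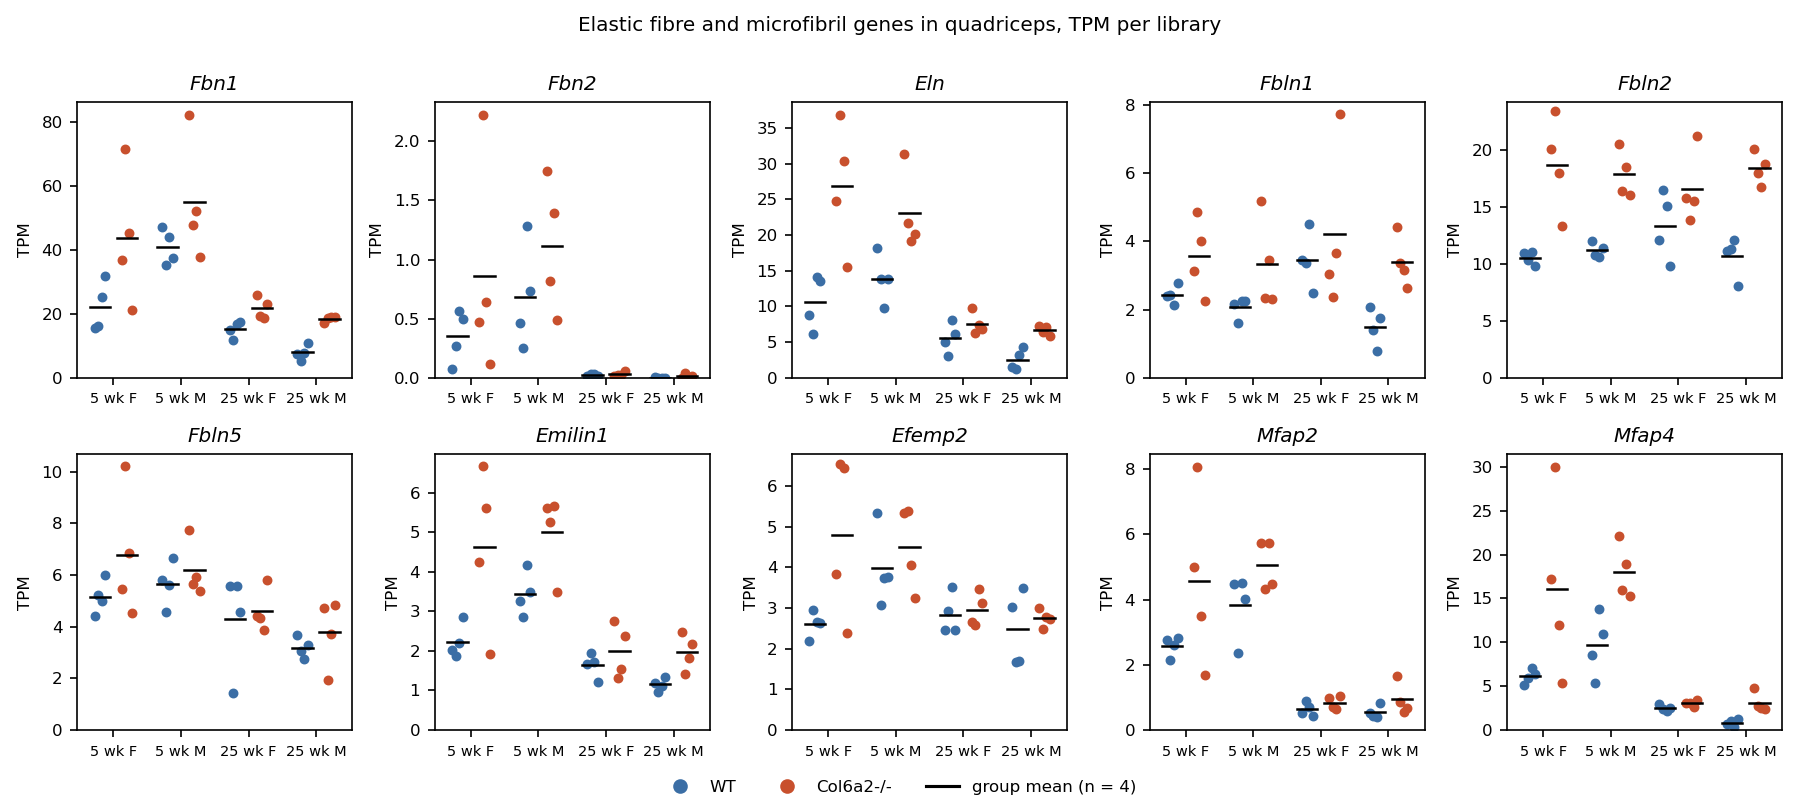
TPM of each of the 10 genes (vertical axes, 1 panel for each gene with its own scale) in the 32 libraries, by genotype, age and sex. Points are single mice and bars are group means (n = 4); Eln lies between 15.6 and 36.8 TPM in the 5-week Col6a2-/- mice and between 6.10 and 18.1 TPM in the 5-week WT mice, while Fbn2 is near 0 at 25 weeks in both genotypes.

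Summed over the 10 genes, the level was 80.2 ± 19.9 TPM in 5-week WT, 135 ± 42.2 in 5-week Col6a2-/-, 40.2 ± 11.0 in 25-week WT and 61.6 ± 7.29 TPM in 25-week Col6a2-/- mice (SD, n = 8 each). The make-up of this sum differed by gene. Fbln2 gave 14.3 ± 3.66% of it in WT and 14.2 ± 2.73% in Col6a2-/- mice at 5 weeks, and 31.3 ± 8.60% and 28.5 ± 3.13% at 25 weeks. The share of Fbn1 was 38.2 ± 6.24% and 35.9 ± 4.34% at 5 weeks and 28.1 ± 5.21% and 32.8 ± 3.43% at 25 weeks. Mfap4 gave 9.82% and 12.3% on average at 5 weeks and 3.87% and 5.00% at 25 weeks, each in WT and Col6a2-/- order. Shares add up to a fixed total, so a gene's share moves when the others move, and they were not tested.

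**Figure D2:**
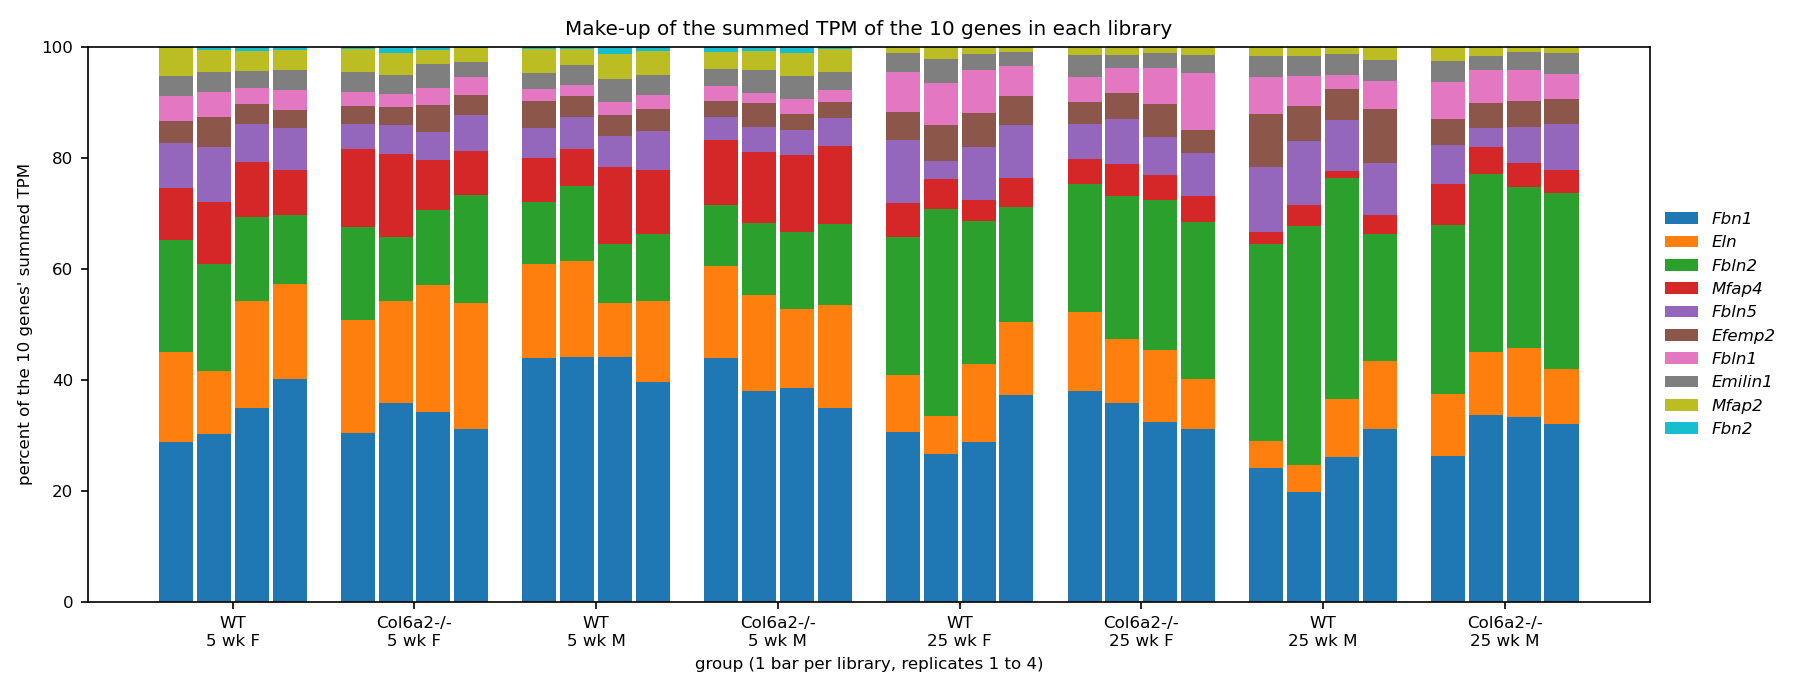
Stacked bars, 1 for each of the 32 libraries in their 8 groups, give the percent (vertical axis, 0 to 100) that each gene takes of the summed TPM of the 10 genes. The mean share of Fbln2 is 14.3% and 14.2% at 5 weeks and 31.3% and 28.5% at 25 weeks in WT and Col6a2-/- mice, while that of Mfap4 is smaller at 25 weeks in both genotypes.

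The first comparison asks how the microfibril and elastic fibre genes differ between Col6a2-/- and WT muscle at 5 weeks. Higher in Col6a2-/- mice were 6 genes, Mfap4, Eln, Emilin1, Fbln2, Fbn1 and Efemp2, with mean TPM 2.16-fold to 1.41-fold that of WT, and none was lower. Thus 6 of 10 genes had a limma adjusted p under 0.05, against a background of 23.2% of all 12817 tested genes called higher at this age. The median change of the 10 genes was 0.50 on the log2(TPM + 1) scale, against 0.15 over all tested genes. On this scale a change at low TPM comes out smaller than the ratio of the levels. Since most genes shifted upwards, each gene's change was also set against the median of all genes: it exceeded that median by 0.84 for Eln, 0.82 for Mfap4, 0.54 for Fbln2, 0.48 for Fbn1 and 0.43 for Emilin1, and by 0.05 for Fbln5. With median-of-ratios size factors, which bring the median of all genes to -0.01, 5 of the 10 were called, all higher, and 47.9% of all calls were higher instead of 91.6%. The share of all tested genes called higher under this scaling is not given, so these 5 of 10 stand without a background. All 10 changes were positive under each scaling tried at this age.

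Fbn1 encodes fibrillin-1, the backbone of microfibrils, and lies on chr2:125300594-125507993 (GRCm38, reverse strand). Its TPM was 15.6, 16.1, 25.4 and 31.9 in WT females 1 to 4 and 36.9, 71.7, 45.3 and 21.3 in Col6a2-/- females. In males it was 47.2, 35.4, 43.9 and 37.5 in WT and 82.4, 47.7, 52.2 and 37.9 in Col6a2-/- mice. The genotypes overlapped in both sexes, because Col6a2-/- female 4 and male 4 lay within the WT ranges, and WT males were above all WT females. The mean was 49.4 ± 19.6 TPM in Col6a2-/- and 31.6 ± 11.8 TPM in WT mice (SD, n = 8), a ratio of 1.56, and limma gave a log2 change of 0.62 (SE 0.18, adjusted p = 0.0143), with 6 of 8 Col6a2-/- libraries above the WT mean of their sex. Fitted on the 16 libraries of this age alone, the limma adjusted p was 0.0605, and the call was lost. Fbn1 overlaps Gm9913 on the other strand, and reads of the 2 could not be told apart without strand.

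Fbn2 encodes fibrillin-2, a fibrillin best known from developing tissue, and lies on chr18:58008623-58209926 (reverse strand). Its TPM in females was 0.0742, 0.266, 0.567 and 0.493 in WT and 0.475, 2.22, 0.640 and 0.113 in Col6a2-/- mice at 5 weeks. In males of that age it was 0.461, 0.254, 1.29 and 0.731 in WT and 1.75, 0.823, 1.40 and 0.487 in Col6a2-/- mice. Single mice differed more than 10-fold within a genotype, and the groups overlapped in both sexes. The means were 0.988 ± 0.726 TPM in Col6a2-/- and 0.517 ± 0.373 TPM in WT mice, and limma gave 0.34 (SE 0.15, adjusted p = 0.0866), which missed the threshold. The log2 ratio of Fbn2 to Fbn1 (0.1 TPM added to each) was -5.73 ± 0.546 in Col6a2-/- and -5.81 ± 0.623 in WT mice, a difference of 0.080 (exact permutation of genotype within sex, two-sided, p = 0.793, 0.793 after Benjamini-Hochberg adjustment over 4 comparisons of this ratio). Its direction turned to -0.281 (exact permutation p = 0.0747) with 1 TPM added, and to between -0.0758 and -0.0055 without Col6a2-/- female 2, WT female 1, WT male 1 or WT male 2, so no direction is read.

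Mfap4, which encodes a microfibril-associated glycoprotein that binds fibrillin and tropoelastin, lies on chr11:61485431-61488900 (forward strand). WT females had 5.10, 5.97, 7.12 and 6.41 TPM and Col6a2-/- females 17.2, 29.9, 11.9 and 5.37 TPM. WT males had 8.53, 5.41, 13.8 and 10.9 TPM and Col6a2-/- males 22.1, 16.0, 18.9 and 15.3 TPM. The males did not overlap, while among females Col6a2-/- female 4 lay within the WT range and the other 3 lay above it. The mean rose from 7.91 ± 3.05 TPM in WT to 17.1 ± 7.19 TPM in Col6a2-/- mice, 2.16-fold, with a limma log2 change of 0.97 (SE 0.20, adjusted p = 0.000975) and 7 of 8 libraries above the WT mean of their sex. Mfap4 overlaps Mapk7 on the other strand, which makes its level uncertain.

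Mfap2 encodes MAGP-1, a small glycoprotein that sits on fibrillin microfibrils, and lies on chr4:141010418-141015984 (forward strand). Females had 2.75, 2.16, 2.60 and 2.83 TPM in WT and 5.01, 8.07, 3.50 and 1.68 TPM in Col6a2-/- mice. Males had 4.47, 2.37, 4.51 and 4.03 TPM in WT and 5.73, 4.32, 5.72 and 4.47 TPM in Col6a2-/- mice. Col6a2-/- females 1 to 3 lay above all WT females and female 4 lay below them. The change of 0.42 (SE 0.16) had a limma adjusted p of 0.0506 and was not called. Without both Col6a2-/- females 2 and 4, a setting chosen after seeing the data, it was called at 0.0105. Over all 43 alternative settings its limma adjusted p ran from 0.00132 to 0.164.

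Emilin1, on chr5:30913402-30921277 (forward strand), encodes a glycoprotein at the border of elastin and microfibrils that is also known to restrain processing of the TGFβ precursor. Its TPM was 2.01, 1.88, 2.19 and 2.86 in WT and 4.26, 6.68, 5.61 and 1.92 in Col6a2-/- females. In WT males it was 3.26, 2.87, 4.16 and 3.48 and in Col6a2-/- males 5.60, 5.25, 5.66 and 3.48. In each sex 3 of 4 Col6a2-/- mice lay above all WT mice and replicate 4 lay within the WT range. The mean was 1.69-fold that of WT (4.81 ± 1.52 against 2.84 ± 0.790 TPM), and limma gave 0.57 (SE 0.14, adjusted p = 0.00456).

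Eln encodes tropoelastin, the soluble precursor of elastin, on chr5:134702593-134747323 (reverse strand). WT females had 8.76, 6.10, 14.1 and 13.5 TPM and Col6a2-/- females 24.7, 36.8, 30.3 and 15.6 TPM. The values in males were 18.1, 13.9, 9.80 and 13.8 TPM in WT and 31.3, 21.7, 19.2 and 20.2 TPM in Col6a2-/- mice. Within each sex every Col6a2-/- mouse lay above every WT mouse. The mean was 25.0 ± 7.21 TPM in Col6a2-/- and 12.3 ± 3.79 TPM in WT mice, 2.04-fold, the largest limma change of the 10 genes at 0.98 (SE 0.20, adjusted p = 0.000569). Eln overlaps Gm30003 on the other strand, so part of its reads could belong there.

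The fibulins bind both elastin and fibrillin or basement membrane proteins. Fbln2, on chr6:91212455-91272540 (forward strand), encodes fibulin-2, a fibulin of microfibrils and basement membranes. Its TPM was 11.0, 10.3, 11.0 and 9.85 in WT females, 20.1, 23.4, 18.0 and 13.3 in Col6a2-/- females, 12.0, 10.7, 10.6 and 11.4 in WT males and 20.6, 16.4, 18.5 and 16.0 in Col6a2-/- males. All 8 Col6a2-/- mice lay above all 8 WT mice. It was the only one of the 10 genes for which this held, against 1.18% of all tested genes that were higher without overlap. The mean was 18.3 ± 3.13 against 10.9 ± 0.652 TPM, 1.68-fold, with a limma log2 change of 0.69 (SE 0.11, adjusted p = 2.69e-05).

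Efemp2 encodes fibulin-4, needed to bring lysyl oxidase to tropoelastin, on chr19:5473973-5481853 (forward strand). In females it was at 2.18, 2.94, 2.65 and 2.62 TPM in WT and 3.83, 6.53, 6.43 and 2.38 TPM in Col6a2-/- mice. In males it was at 5.33, 3.08, 3.73 and 3.75 TPM in WT and 5.32, 5.38, 4.04 and 3.25 TPM in Col6a2-/- mice, nearly the same ranges. Its call was a narrow one, with a limma change of 0.38 (SE 0.14, adjusted p = 0.0449). It missed the threshold under 8 other settings (limma adjusted p from 0.0523 to 0.223) and held in 19 of 32 fits that left out 1 library; without Col6a2-/- female 2 the limma adjusted p was 0.125. Fbln1 (fibulin-1, chr15:85205949-85286535, forward strand) ranged from 1.60 to 2.77 TPM in WT and from 2.24 to 5.18 TPM in Col6a2-/- mice, and in males alone the genotypes did not overlap. Its change of 0.42 (SE 0.16) was not called (limma adjusted p = 0.0590). Fbln5 (fibulin-5, which links elastin to cells and to lysyl oxidase-like enzymes; chr12:101746565-101819055, reverse strand) ranged from 4.40 to 6.67 TPM in WT and from 4.55 to 10.2 TPM in Col6a2-/- mice. Its change was the smallest of the 10, 0.20 (SE 0.17, limma adjusted p = 0.397).

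Taking the sexes apart at 5 weeks, 6 genes were called in females (Eln 1.26, Mfap4 1.05, Fbn1 0.88, Fbln2 0.75, Emilin1 0.72 and Efemp2 0.61 on the log2 scale), with 12.3% of all tested genes called higher. In females the call of Fbn1 was lost with no filter (limma adjusted p = 0.0620) and median-of-ratios scaling (0.0504), and that of Efemp2 with no filter and each of the 3 rescalings (0.0819 to 0.104). In males Fbln2 alone was called (0.63, SE 0.15, limma adjusted p = 0.0101), with 4.55% of all genes called higher. The difference between the sexes was itself tested and called none of the 10 genes with limma, with 0 of 10 at an unadjusted p under 0.05 and 0 of 12817 genes called. By ranges the order was the other way round: Eln, Fbln1, Fbln2 and Mfap4 did not overlap in males (9.32% of all genes), and Eln and Fbln2 did not overlap in females (8.53%). The female counts rest on few libraries. With Col6a2-/- female 4 left out 8 genes were called in females and 9 in both sexes together, and with female 2 left out these counts were 2 and 5. Leaving out WT female 1 or Col6a2-/- female 1 also gave 2 in females, WT female 2 or Col6a2-/- female 3 gave 3, and a fit on the 8 female libraries alone called none. In males, leaving out Col6a2-/- male 1 left no gene called, and leaving out WT male 3, Col6a2-/- female 2 or Col6a2-/- female 4 gave 2. Without both females 2 and 4, 7 genes were called over both sexes, the 6 with changes from 0.44 (Efemp2) to 1.03 (Eln) and Mfap2. That fit called 3284 of all 12817 tested genes in either direction, against 3253 with all libraries. For the other refits of this paragraph the share of all genes called is not given, so their counts only describe dependence on single libraries.

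Some markers of fibroblasts and all those listed for macrophages were called higher in the same comparison. At 5 weeks 6 of 12 fibroblast markers, 9 of 9 macrophage markers, 4 of 8 endothelial markers and 2 of 10 smooth muscle and pericyte markers were called higher, and none of these was called lower; of all tested genes 23.2% were called higher, above the share among smooth muscle and pericyte markers. In females alone 2 fibroblast, 8 macrophage, 1 endothelial and 1 smooth muscle and pericyte markers were called higher, beside 12.3% of all tested genes. In males 6 macrophage markers and no other were called higher, beside 4.55% of all tested genes. The summed fibroblast markers ran from 742 to 1430 TPM in WT and from 694 to 2077 TPM in Col6a2-/- mice, and the macrophage markers from 64.1 to 108 TPM and from 104 to 353 TPM. None of the tenocyte (8), Schwann cell (6 of 7 tested) or adipocyte (6) markers was called. Of the muscle fibre markers 4 of 9 were called lower, beside 274 of all 12817 tested genes. Summed endothelial markers were at 76.9 to 136 TPM in WT and 83.8 to 155 TPM in Col6a2-/- mice, those of smooth muscle and pericytes at 195 to 295 and 223 to 272 TPM, and those of tenocytes at 59.2 to 317 and 70.7 to 397 TPM. Adipocyte markers summed to 18.7 to 301 and 70.9 to 444 TPM and Schwann cell markers to 34.0 to 195 and 37.8 to 110 TPM. No defining marker was at 0 in all libraries. Their part in the changes of the 10 genes was not tested.

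At 25 weeks 4 of the 10 genes were higher in Col6a2-/- muscle: Fbn1, Eln, Fbln2 and Mfap4, with mean TPM 1.46-fold to 1.87-fold that of WT. All 4 were also called at 5 weeks, in other mice. Against these 4 of 10 stands a background of 4.47% of all tested genes called higher at this age, and the median change was 0.40 for the 10 genes and 0.08 for all genes. This background depends on the scaling. With median-of-ratios size factors 4 of the 10 were called, and 1384 of all genes in either direction instead of 603. Over both sexes none of the 10 was higher without overlap (background 0.663%). None was called lower, and Fbn2, Fbln5, Efemp2, Mfap2, Emilin1 and Fbln1 were not called.

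Fbn1 stood at 14.9, 11.8, 16.7 and 17.6 TPM in WT and 26.0, 19.2, 18.6 and 23.2 TPM in Col6a2-/- females. The males had 7.58, 5.21, 7.90 and 11.0 TPM in WT and 17.3, 18.8, 19.1 and 18.9 TPM in Col6a2-/- mice. Within each sex the genotypes did not overlap, and the 4 Col6a2-/- males lay within 2 TPM of each other. The means of 20.2 ± 2.92 and 11.6 ± 4.54 TPM (SD, n = 8) were 1.74-fold apart, and limma gave 0.83 (SE 0.18, adjusted p = 0.00901). Eln was at 5.02, 3.05, 8.15 and 6.18 TPM in WT females and 9.76, 6.27, 7.45 and 6.83 TPM in Col6a2-/- females. Its TPM in males was 1.49, 1.27, 3.17 and 4.30 in WT and 7.25, 6.39, 7.15 and 5.80 in Col6a2-/- mice. The females overlapped and the males did not. For Eln limma gave 0.81 (SE 0.20, adjusted p = 0.0154), and the mean ratio was 1.74; with a pseudocount of 5 the adjusted p was 0.0704 and with no filter 0.0517.

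For Fbln2 the females had 12.1, 16.5, 15.0 and 9.80 TPM in WT and 15.7, 13.9, 15.5 and 21.2 TPM in Col6a2-/- mice. The WT males had 11.2, 11.3, 12.1 and 8.06 TPM and the Col6a2-/- males 20.1, 18.0, 16.8 and 18.7 TPM. Again the males were apart and the females overlapped. The ratio of means was 1.46 and the limma log2 change 0.52 (SE 0.11, adjusted p = 0.00436). Mfap4 was at 2.95, 2.40, 2.18 and 2.47 TPM in WT and 3.07, 3.10, 2.68 and 3.45 TPM in Col6a2-/- females. In males it was at 0.640, 0.977, 0.384 and 1.22 TPM in WT and 4.79, 2.71, 2.46 and 2.42 TPM in Col6a2-/- mice. All 8 Col6a2-/- libraries lay above the WT mean of their sex. Mfap4 had a limma change of 0.69 (SE 0.20, adjusted p = 0.0445), which held in 16 of 32 fits that left out 1 library. Without Col6a2-/- male 1 its limma adjusted p was 0.122, and with a pseudocount of 5 it was 0.310, with no filter 0.118, with FPKM 0.0644 and with the replicate block 0.0513.

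Of the genes that were not called, Emilin1 was at 0.962 to 1.94 TPM in WT and 1.31 to 2.77 TPM in Col6a2-/- mice (change 0.31, SE 0.14, limma adjusted p = 0.224), with the males apart. Mfap2 was at 0.387 to 0.887 TPM in WT and 0.566 to 1.66 TPM in Col6a2-/- mice (limma adjusted p = 0.428). Fbln1 spanned 0.777 to 4.51 and 2.38 to 7.73 TPM, with Col6a2-/- female 4 highest at 7.73 TPM, and had a change of 0.48 (SE 0.16, limma adjusted p = 0.0835). Efemp2 spanned 1.67 to 3.51 TPM in WT and 2.49 to 3.46 TPM in Col6a2-/- mice, and Fbln5 spanned 1.42 to 5.56 and 1.95 to 5.79 TPM. Their changes were 0.10 (SE 0.14) and 0.17 (SE 0.17). Fbn2 was listed at 0 in 3 WT and 2 Col6a2-/- libraries at this age and was at most 0.0345 TPM in the other WT and 0.0609 TPM in the other Col6a2-/- libraries, so no fold is given. Fbn2 was below the added 0.1 TPM in all 16 libraries of this age, so its log2 ratio to Fbn1 only restates the level of Fbn1 there and is not read.

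**Figure D3:**
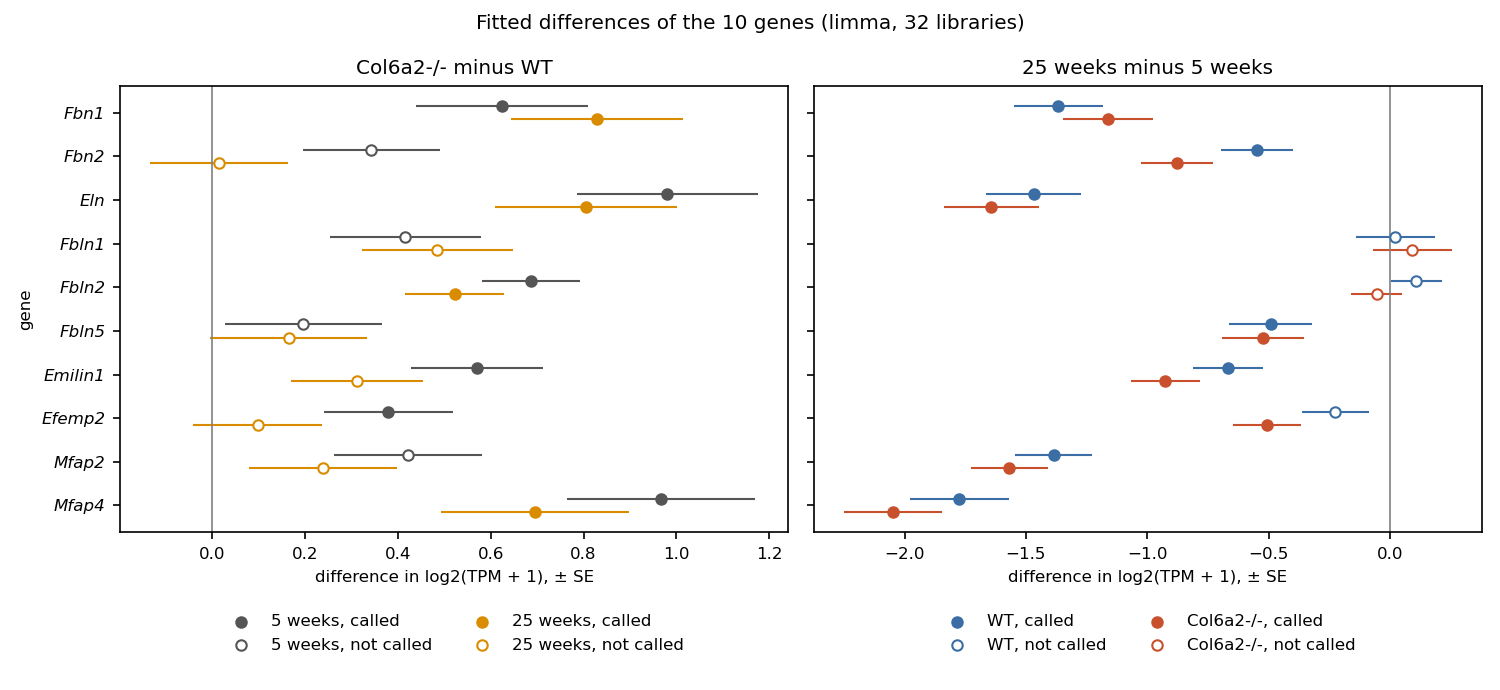
Differences in log2(TPM + 1) of the 10 genes (horizontal axes), Col6a2-/- minus WT at each age in the left panel and 25 minus 5 weeks in each genotype in the right panel, with bars of 1 SE from limma and filled points where the adjusted p is under 0.05. Genotype differences lie above 0, up to 0.98 for Eln at 5 weeks, and age differences reach -2.05 for Mfap4 in Col6a2-/- mice.

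The sexes gave different counts at 25 weeks. In males 5 genes were called higher in Col6a2-/- mice: Eln (1.19, SE 0.28), Mfap4 (1.17, SE 0.29), Fbn1 (1.17, SE 0.26), Fbln1 (0.83, SE 0.23) and Fbln2 (0.75, SE 0.15), against 2.91% of all genes called higher. Their mean TPM was 3.84-fold that of WT males for Mfap4, 2.60-fold for Eln, 2.34-fold for Fbn1, 2.27-fold for Fbln1 and 1.73-fold for Fbln2. These WT males had the lowest mean share of TPM outside mitochondrial and Rn7s genes of the 8 groups. It was 32.2 ± 4.47%, with WT males 1 and 3 at 28.4 and 28.6%, against 34.9 ± 2.19% in Col6a2-/- males. Their mean number of genes at 1 TPM was also the lowest, 10580.2 against 11288.5. The part of this library make-up was not tested. In females limma called none of the 10 (0 at an unadjusted p under 0.05) and 1 of 12817 genes (0.0078%). That 1 gene was Col6a2, the targeted gene, which was called lower. The largest change of the 10 genes in females was 0.49 for Fbn1. A test of the sex difference itself called none of the 10 and 2 of all genes (0.0156%), with 3 of the 10 at an unadjusted p under 0.05. Ranges were apart for 6 genes in males (the 5 named and Emilin1; 13.9% of all genes) and for Fbn1 in females (3.80%). With a pseudocount of 5 or with no filter, Fbn1, Eln, Fbln1 and Mfap4 lost their calls in males and only Fbln2 remained, with limma adjusted p of the 4 from 0.0511 to 0.242; Fbln1 was also lost with 2 of the other scalings and with FPKM. Without WT male 2 or without Col6a2-/- male 1, only 1 gene was called in males, and without WT male 1, WT male 3 or Col6a2-/- male 3 there were 3. The share of all genes called in these refits is not given, so the counts only describe dependence on single libraries. At this age 6 of 12 fibroblast markers and 7 of 9 macrophage markers were called higher, with summed levels of 299 to 596 TPM in WT against 649 to 1020 TPM in Col6a2-/- mice, and of 43.0 to 118 against 113 to 212 TPM. None of the endothelial, smooth muscle and pericyte, tenocyte, Schwann cell, adipocyte or muscle fibre markers was called over both sexes. In males 4 of 12 fibroblast, 5 of 9 macrophage, 1 of 8 endothelial and 1 of 10 smooth muscle and pericyte markers were called higher, with median changes of 0.71 for fibroblasts, 0.94 for macrophages, 0.86 for tenocytes and 1.28 for adipocytes, and in females no marker of the 8 lists was called. The part of these markers was not tested.

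Whether the genotype difference itself changed between the ages was tested as an interaction. limma called none of the 10 genes, with 0 at an unadjusted p under 0.05 and 0.492% of all genes called. The differences of changes ran from -0.33 for Fbn2 to 0.20 for Fbn1, where a negative value is a smaller genotype change at 25 weeks. So the calls of Emilin1 and Efemp2 at 5 weeks and their absence at 25 weeks do not show a difference between the ages.

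The second main comparison is age. From 5 to 25 weeks most of these genes fell in both genotypes. In WT mice 7 of 10 genes were called lower at 25 weeks and none higher, and in Col6a2-/- mice 8 of 10 were called lower. These counts include Fbn2 and Mfap2, which were admitted only through 5-week libraries (4 and 16 at 1 TPM, against 0 and 2 at 25 weeks); of the other 8 genes 5 were lower in WT, against 15.3% of all tested genes, and 6 in Col6a2-/- mice, against 28.8%. The median change of these 8 genes was -0.58 in WT, where that of all genes was -0.08, and -0.73 in Col6a2-/- mice, where that of all genes was -0.14. With median-of-ratios size factors 4 and 5 of the 8 were called lower, and the share of all calls that were higher moved from 22.6 to 50.2% in WT and from 15.8 to 50.5% in Col6a2-/- mice. The share of all tested genes called lower under this scaling is not given, so these 2 counts stand without a background.

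On the log2(TPM + 1) scale Mfap4 had the largest decline of the 10, from 7.91 ± 3.05 to 1.65 ± 0.959 TPM in WT and from 17.1 ± 7.19 to 3.09 ± 0.772 TPM in Col6a2-/- mice (SD, n = 8), that is 4.79-fold and 5.54-fold. limma gave -1.77 (SE 0.20, adjusted p = 2.71e-07) and -2.05 (SE 0.20, adjusted p = 1.04e-08). Mfap2, the other small microfibril glycoprotein, fell 5.47-fold in WT, from 3.21 ± 0.962 to 0.588 ± 0.195 TPM, and 5.42-fold in Col6a2-/- mice, from 4.81 ± 1.86 to 0.888 ± 0.352 TPM. Its limma changes were -1.39 (adjusted p = 3e-07) and -1.57 (adjusted p = 1.63e-08), which the log2(TPM + 1) scale understates at these levels; as Mfap2 passed the filter only through 5-week libraries, its direction with age was partly set by that filter. For both genes every 25-week library lay below every 5-week library in each genotype.

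Eln fell 3.01-fold in WT (-1.47, SE 0.20, limma adjusted p = 3.18e-06) and 3.51-fold in Col6a2-/- mice (-1.64, SE 0.20, adjusted p = 2.64e-07). In Col6a2-/- mice the ages did not overlap. In WT mice 25-week females 3 (8.15 TPM) and 4 (6.18 TPM) lay above 5-week female 2 (6.10 TPM). Fbn1 fell 2.73-fold in WT (-1.37, SE 0.18, limma adjusted p = 3.92e-06) and 2.45-fold in Col6a2-/- mice (-1.16, SE 0.18, adjusted p = 1.96e-05). The 25-week Col6a2-/- means of Fbn1 (20.2 ± 2.92 TPM) and Eln (7.11 ± 1.21 TPM) lay between the WT means at 25 and 5 weeks. Emilin1 fell as well, 2.04-fold in WT (-0.67, limma adjusted p = 0.00123) and 2.42-fold in Col6a2-/- mice (-0.93, adjusted p = 1.25e-05).

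Fbn2 fell to the bottom of the scale. All 8 libraries at 25 weeks lay below all 8 at 5 weeks in both genotypes, and limma gave -0.55 (SE 0.15, adjusted p = 0.00890) in WT and -0.88 (SE 0.15, adjusted p = 4.6e-05) in Col6a2-/- mice. The limit given for Mfap2 holds for Fbn2 too, which reached 1 TPM only in 5-week libraries. Its ratio to Fbn1 between the ages is not read, for the reason given above. Leaving Fbn2 and Mfap2 aside, 1 of 8 genes, Mfap4, was lower without overlap between ages in WT (background 2.30%), and 2 of 8, Mfap4 and Eln, in Col6a2-/- mice (background 1.88%).

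The fibulins divided. Fbln1 (0.02 in WT, 0.09 in Col6a2-/- mice, each with SE 0.16) and Fbln2 (0.11 and -0.06, SE 0.11) were not called with age in either genotype, with limma adjusted p from 0.527 to 0.945. Fbln5 fell 1.45-fold in WT (-0.49, SE 0.17, limma adjusted p = 0.0387) and 1.54-fold in Col6a2-/- mice (-0.52, SE 0.17, adjusted p = 0.0179). The WT call of Fbln5 was lost in 9 of the 32 fits without 1 library, at most to 0.102 without WT 25-week female 2. It was also lost with median-of-ratios (0.0553) and quantile scaling (0.0569), rescaling without mitochondrial and Rn7s genes (0.0996), FPKM (0.0560) and no filter (0.0922), and the Col6a2-/- call with the first 2 of these (limma adjusted p = 0.0749 and 0.0609). Efemp2 was called in Col6a2-/- mice (-0.51, SE 0.14, limma adjusted p = 0.00607) and not in WT (-0.23, limma adjusted p = 0.280), and the interaction of genotype and age for Efemp2 was -0.28 and not called. The 3 promoter windows printed above belong to these fibulin genes, of which Fbln1 was not called with age and the other 2 fell in at least 1 genotype.

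With age, where 15.3% of all tested genes in WT and 28.8% in Col6a2-/- mice were called lower, 6 of 12 fibroblast markers were called lower in WT and 5 lower with 1 higher in Col6a2-/- mice, and macrophage markers 1 and 8 of 9. Lower calls in WT and Col6a2-/- mice numbered 2 and 4 of 8 for endothelium, 4 and 4 of 10 for smooth muscle and pericytes, 3 and 3 of 8 for tenocytes, 3 and 6 of 6 tested for Schwann cells, 1 and 1 of 9 for muscle fibres and none for adipocytes. The tenocyte marker Mkx passed the filter only through 5-week libraries (7 at 1 TPM, against 1 at 25 weeks), which partly set its direction with age. Inferred depth was lower at 25 weeks as well (means given above), and neither part in the decline was tested.

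Averaged over genotype and age, sex changed none of the 10 genes by limma (1 at an unadjusted p under 0.05; 3.05% of all genes called). In WT mice 9 of the 10 genes had a higher mean in males at 5 weeks and a lower one at 25 weeks, and Fbln1 was lower in males at both ages. This was noticed in the values and tested afterwards. All tested genes leaned the same way, with a median sex difference in WT of 0.14 at 5 weeks and -0.14 at 25 weeks. The share of them with this order is not given, so the 9 of 10 is a description. Fbn1 had a mean of 41.0 ± 5.50 TPM in males and 22.2 ± 7.82 in females at 5 weeks, and 7.92 ± 2.38 and 15.3 ± 2.57 TPM at 25 weeks (SD, n = 4). Mfap4 had 9.67 ± 3.57 and 6.15 ± 0.846 TPM at 5 weeks, and 0.806 ± 0.369 and 2.50 ± 0.322 TPM at 25 weeks. The interaction of sex and age in WT was called for these 2 genes, at -1.79 (SE 0.37, limma adjusted p = 0.0152) and -1.49 (SE 0.41, adjusted p = 0.0445), against 2.38% of all genes called in that direction. All 10 interactions were negative and their median was -0.65, that of all genes -0.27. Within one age neither was called: the sex difference of Fbn1 was 0.90 at 5 weeks (limma adjusted p = 0.0693) and -0.89 at 25 weeks (0.0953), where backgrounds were 1.86% and 1.22%. The Mfap4 interaction held in 13 of 32 fits that left out 1 library, and its call was lost with a pseudocount of 5, no filter, each of the 3 rescalings, FPKM and the replicate block (limma adjusted p from 0.0512 to 0.149). Markers moved with this contrast: 3 of 12 fibroblast, 2 of 8 endothelial and 1 of 9 macrophage markers were called lower. None of the tenocyte, smooth muscle and pericyte, Schwann cell, adipocyte or muscle fibre markers was called. Medians were -1.28 for tenocytes, -0.98 for Schwann cells, -0.95 for macrophages, -0.71 for adipocytes and -0.65 for fibroblasts. They were -0.58 for endothelium, -0.49 for smooth muscle and pericytes and -0.36 for muscle fibres. Col6a2, the targeted gene, was also called lower (-1.33). Summed fibroblast markers in WT males and females ran from 814 to 1430 and from 742 to 985 TPM at 5 weeks, and from 299 to 556 and from 470 to 596 TPM at 25 weeks. Those of tenocytes ran from 59.2 to 317 and from 106 to 182 TPM, and then from 20.6 to 68.9 and from 83.4 to 186 TPM. Library make-up moved with this contrast too. The mean share of TPM outside mitochondrial and Rn7s genes was 38.4 ± 1.87% in WT males and 36.1 ± 1.49% in WT females at 5 weeks. At 25 weeks it was 32.2 ± 4.47% and 35.7 ± 1.46%. The part of the markers and of this share in the interaction was not tested.

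Genes around the elastic fibre were counted in 5 lists of 65 genes, of which 54 were tested. Together 26 were called higher and 1 lower in Col6a2-/- mice at 5 weeks (median change 0.33, all genes 0.15; 23.2% of all tested genes called higher), and 20 higher and none lower at 25 weeks (median 0.29, all genes 0.08; 4.47% of all tested genes called higher). Adamts17, among the 26, reached 1 TPM only in Col6a2-/- libraries, so the filter partly set its direction with genotype. With age 28 were lower and 1 higher in WT, and 34 lower and 4 higher in Col6a2-/- mice, where 15.3% and 28.8% of all tested genes were called lower. Adamtsl2, Adamts17 and Loxl4 passed the filter only through 5-week libraries and Mmp9 only through 25-week ones, which partly set their direction; of the other 50 genes 26 were lower and 1 higher in WT and 32 lower and 3 higher in Col6a2-/- mice. The shares of all genes are the background for each list described next. The lists were written with results of these data known.

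Microfibril partners, such as latent TGFβ binding proteins, ADAMTS-like proteins and proteoglycans, had 8 of 18 tested genes higher at 5 weeks and 5 at 25 weeks; Adamts17, among the 8, passed the filter only through Col6a2-/- libraries. Biglycan (Bgn), a small proteoglycan that binds tropoelastin and fibrillin, was at 60.2 ± 19.8 TPM in Col6a2-/- and 27.4 ± 8.44 TPM in WT mice at 5 weeks (1.09, SE 0.16, limma adjusted p = 2.08e-05) and changed by 0.94 at 25 weeks (adjusted p = 0.00125). Versican (Vcan), a large proteoglycan that binds fibrillin-1, changed by 0.85 and 0.73 (limma adjusted p = 0.00107 and 0.0167). With age 9 partners were lower in WT and 10 in Col6a2-/- mice. Adamtsl2 fell from 1.99 ± 0.597 to 0.385 ± 0.125 TPM in WT (-1.09, limma adjusted p = 5.71e-09) and by -1.40 in Col6a2-/- mice, having passed the filter at 5 weeks only. In Col6a2-/- mice Mfap5, the relative of Mfap2, fell from 21.4 ± 6.39 to 8.58 ± 1.49 TPM. In WT, Bgn changed by -0.98 with age.

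Relatives of the fibulins and EMILINs had 4 of 8 tested genes higher and 1 lower at 5 weeks, and 5 higher at 25 weeks. Hemicentin-2 (Hmcn2) was at 11.9 ± 3.77 against 5.91 ± 1.17 TPM at 5 weeks (0.88, SE 0.15, limma adjusted p = 9.59e-05) and changed by 0.94 at 25 weeks. Fbln7 (fibulin-7) changed by 0.73 and 0.68 (limma adjusted p = 0.00194 and 0.0151). Efemp1, which encodes fibulin-3, the nearest relative of fibulin-4, went the other way, at 3.35 ± 0.801 TPM in Col6a2-/- and 4.62 ± 1.23 TPM in WT mice at 5 weeks (-0.36, SE 0.12, limma adjusted p = 0.0214). Efemp1 was also higher at 25 than at 5 weeks in Col6a2-/- mice (0.58), as was Mmrn1 (0.36), while 5 relatives fell, among them Fbln7 (-0.72) and Hmcn2 (-0.40). In WT 4 fell with age, among them Fbln7 (-0.67) and Emilin2 (-0.50).

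Elastin cross-linking is the step by which lysyl oxidases make the fibre insoluble. Of 8 genes listed with it, 3 were higher at each age in Col6a2-/- mice, with Glb1 among the 3 at 5 weeks. Loxl1, the lysyl oxidase-like enzyme known for elastic fibre upkeep, was at 8.76 ± 2.98 against 4.43 ± 0.792 TPM at 5 weeks (0.79, SE 0.14, limma adjusted p = 0.000212) and changed by 0.65 at 25 weeks. Glb1 (0.56 at 5 weeks) is a lysosomal galactosidase whose splice form serves as the elastin-binding protein, and it does not cross-link elastin. Loxl2 changed by 0.66 at 25 weeks (limma adjusted p = 0.0153). The list fell with age, 6 of 8 in WT and 7 of 8 in Col6a2-/- mice, led by Loxl2 (from 11.0 ± 3.94 to 3.06 ± 1.08 TPM in WT, -1.55, and -1.29 in Col6a2-/- mice) and Lox (-1.45 and -1.26).

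Of 12 tested genes in the list of proteases that can cut elastin and of inhibitors, 7 were higher at 5 weeks and 5 at 25 weeks. Cathepsin S (Ctss), an elastase of macrophages, had the largest change of any gene in the 5 lists at 5 weeks, 25.0 ± 7.35 against 4.64 ± 1.12 TPM (2.17, SE 0.17, limma adjusted p = 2.48e-10), beside 9 of 9 macrophage markers called higher. At 25 weeks Ctss changed by 1.19. The protease inhibitor Timp1 changed by 1.65 and 0.89 (limma adjusted p = 3.54e-06 and 0.0180). With age 5 genes were lower in WT, led by Serpinf1 (-1.06) and Ctsk (-1.05). Serpinf1 is in the list but is not read here as an elastase or an elastase inhibitor. In Col6a2-/- mice 8 were lower, led by Timp1 (-1.57) and Ctsk (-1.04), and Mmp9, tested only through 25-week libraries, was higher (0.46).

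The list of receptors and cell contacts had 4 of 8 tested genes higher at 5 weeks and 2 at 25 weeks. Its largest change was in Fn1, which encodes fibronectin, a matrix scaffold for fibrillin assembly and not a receptor: 54.0 ± 23.4 against 29.4 ± 12.4 TPM at 5 weeks (0.82, limma adjusted p = 0.0341) and 41.3 ± 34.4 against 14.5 ± 7.13 TPM at 25 weeks (1.35, adjusted p = 0.00626). The integrin genes Itgav (0.49 at 5 weeks, limma adjusted p = 0.0457) and Itga5 (0.53 at 25 weeks, 0.0102) were higher. With age Itgb5 rose in both genotypes (0.64 in WT, 0.39 in Col6a2-/- mice), against 4 genes that fell in each, among them Fn1 (-1.02) and Itga5 (-0.58) in WT and Itga9 (-0.64) and Itgb1 (-0.56) in Col6a2-/- mice.

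**Figure D4:**
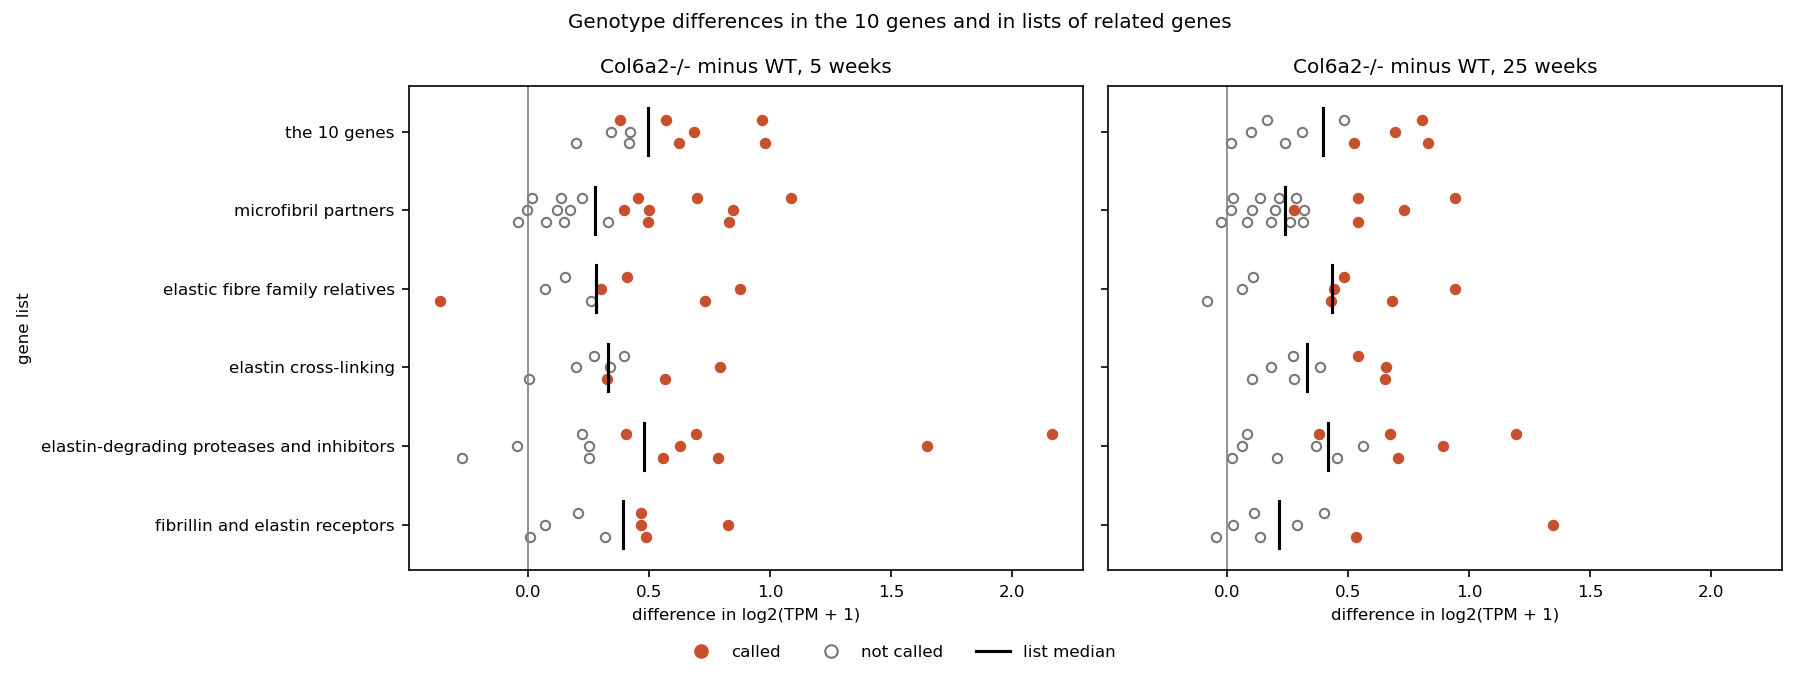
Col6a2-/- minus WT differences in log2(TPM + 1) (horizontal axes) at 5 and 25 weeks for the 10 genes and the tested genes of the 5 lists (rows). Each point is 1 gene, filled where limma's adjusted p is under 0.05, and the black bars are list medians; most points lie above 0, and Ctss at 2.17 lies farthest right at 5 weeks.

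Within groups, after removal of the 8 group means, the 10 genes varied together to different degrees over the 32 libraries. Of 45 pairs 25 had a Pearson r above 0.5, the median was 0.52, the closest pair was Mfap2 and Mfap4 (0.90), and the least close was Eln and Fbln2 (0.09). The tested genes outside the 10 closest to Fbn1 were Col5a1 (0.91) and Vcan (0.90), to Mfap4 Sparc (0.90) and Ppic (0.89), to Mfap2 Ppic (0.91) and Lxn (0.91), and to Emilin1 Sec61a1 (0.91) and Col6a1 (0.89). Fbn2 was closest to Zfp185 (0.96) and Dnm3os (0.92), Eln to Kctd10 (0.83) and Col5a3 (0.83), and Fbln1 to Prelp (0.89) and Ahnak2 (0.87). At 25 weeks Fbn2 was at most 0.0609 TPM, so every r with Fbn2 rests mainly on the 5-week libraries. Fbln2 was closest to Tmem234 (0.82) and Fau (0.78), Fbln5 to Tmem107 (0.74) and Zfand2b (0.74), and Efemp2 to Mydgf (0.83) and Tuba1a (0.81). These r describe libraries that share depth and cell make-up within a mouse, and they rest in part on the 5-week Col6a2-/- females 2 and 4, which lie at the ends for all 10 genes. Without both, in 30 libraries, an alternative chosen after seeing the data, 10 of the 45 pairs had an r above 0.5, the median was 0.34, Mfap2 and Mfap4 were at 0.77 and Eln and Fbln2 at -0.17, and the 20 likeness values ran from 0.68 (Fbln2 and Fau) to 0.92 (Fbn2 and Zfp185).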

How the data were processed

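RNA of quadriceps sections from 32 mice was sequenced, per the labels' protocols, from TruSeq libraries as read pairs. The submitters' processing notes name FastQC, MultiQC, Trimmomatic, HISAT2, SAMtools and StringTie and the builds GRCm38 and mm10, without versions, roles or order. The use of strand is not given in the sources used here. Per the file headers, each deposited table lists coverage, FPKM and TPM for every gene of 1 library. The authors computed TPM so that each library totals 1000000. FPKM values, also deposited by the authors, served as an alternative. Deposited coverage served only, with FPKM, to infer depth in gigabases from the ratio of coverage to FPKM shared by 2240 to 3365 genes of a library, which holds if FPKM is coverage over that total. As no read counts were used, tests for counts were not applicable, and the design's branch for normalised values was followed. Library depth is known only by this inference, so no counting interval is given.

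TPM was summed per gene ID and 1 was added before taking log2. Genes that reached 1 TPM in 4 or more libraries, 12817 of them, were tested. One limma model (lmFit, eBayes with trend) with a mean per group was fitted to all 32 libraries, contrasts weighted the sexes equally, tests were two-sided, and p-values were adjusted by Benjamini-Hochberg over all tested genes; called means under 0.05. Contrasts covered genotype (by age, by sex within each age, and the interactions with both), age within WT and within Col6a2-/- mice, and sex; sex within WT was added after values were seen. The ratio of Fbn2 to Fbn1 was tested by exact permutation within sex. Mice were separate animals, no batch was named, no 2 tables were identical and the highest correlation between libraries was 0.984. Replicate numbers were not part of the model reported, and a fit with them as a block was an alternative. The model was tested on simulated data.

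The members, the 5 pathway lists and the 8 marker lists were chosen with earlier results of these data known. All 10 members are named, and of each pathway list up to 2 called genes per direction with the largest change for genotype at each age and age in each genotype; marker lists are given by counts and summed level, and likeness by the 2 non-members with the highest Pearson r. Listed but not tested were Ltbp2, Adamts6, Thsd4, Emilin3, Vwce, Mmp12, Cela1, Elane, Serpina1a, Itgb3 and Itgb8. Of the 10 gene spans, 8 equal those of GENCODE M21. Promoters are those of RefSeq. Alternatives changed the pseudocount, filter, scaling, unit, libraries fitted and block. R 4.3.3, limma 3.58.1, the data.table package in version 1.17.8, Python 3.11.15, numpy 2.4.6, pandas 2.3.3 and matplotlib 3.10.9 were used.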

Additional observations from a re-analysis of the deposited data

Results flagged for a closer look

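Of 80 sets of 4 libraries (10 genes in 8 groups), 4 held 1 library far from the others by Dixon's ratio at its 95% limit, where chance gives about 1 in 20. In 25-week Col6a2-/- males, male 1 was lowest for Fbn1 at 17.3 TPM, with the others at 18.8 to 19.1 TPM, and highest for Mfap4 at 4.79 TPM, with the others at 2.42 to 2.71 TPM. Fbln1 was lowest in 5-week WT male 2 at 1.60 TPM, with the others at 2.17 to 2.25 TPM. Fbn2 was at 0.00511 TPM in 25-week WT male 1 and listed at 0 in the other 3, which is a step from 0 and no level. A difference between the effects of sex at the 2 ages in WT mice was found by limma's interaction for Fbn1 (-1.79, adjusted p = 0.0152) and for Mfap4 (-1.49, adjusted p = 0.0445), a contrast added after the values were seen; the Mfap4 call was lost under 7 other settings (limma adjusted p from 0.0512 to 0.149).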

How the results depend on the processing

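Counts of called members that moved by over 1.5 times were as follows. At 25 weeks (4 in the fit reported) a pseudocount of 5 and no filter each gave 2, in 25-week males (5) they each gave 1 and left-out libraries 1 to 5. In 5-week females (6) a fit on the compared libraries gave 0 and left-out libraries 2 to 8. In 5-week males (1) a pseudocount of 5, rescaling without mitochondrial and Rn7s genes, quantile scaling and leaving out both Col6a2-/- females 2 and 4 each gave 2, and left-out libraries 0 to 2. For sex (0) median-of-ratios and quantile scaling gave 1. For sex by age in WT (2) a pseudocount of 5, no filter, each of the 3 rescalings, FPKM and the replicate block gave 1, the compared libraries alone 5, without both females 4, and left-out libraries 1 to 4. Over left-out libraries 5 to 9 members were called at 5 weeks, 3 to 4 at 25 weeks, 6 to 7 with age in WT and 7 to 8 in Col6a2-/- mice. Apart from the all-gene counts given below, no share of all genes stands beside these counts, so they are descriptions.

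Counts over all genes moved too. At 25 weeks (603) they were 317 with a pseudocount of 5, 343 with no filter, 344 with a filter of 5 TPM, 1384 with median-of-ratios factors, 1177 with the compared libraries only, 1249 without both females and 271 to 996 with 1 library left out. At 5 weeks (3253) a filter of 5 TPM gave 1553 and the compared libraries 1907, and with age the 5 TPM filter gave 1441 in WT (2536) and 2263 in Col6a2-/- mice (4389); that filter tests fewer genes, and the cause of the others was not tested.

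The difference in the Fbn2 to Fbn1 ratio reversed with 1 TPM added in place of 0.1, from 0.080 to -0.281 at 5 weeks, from -0.789 to 0.818 for age in WT and from -1.63 to 0.287 for age in Col6a2-/- mice, where Fbn2 lies below the added constant at 25 weeks, and at 5 weeks ran from -0.0758 to 0.229 with 1 library left out. Uncalled single changes near 0 changed sign: Fbln1 with age in WT with a pseudocount of 0.1 (-0.0181), Efemp2 in 25-week males with median-of-ratios (-0.0027) and quantile scaling (-0.0377), Fbln2 with age in Col6a2-/- mice with 3 scalings (0.128, 0.012 and 0.067), and with quantile scaling Fbn2 (-0.028) and Efemp2 (-0.0197) at 25 weeks and Efemp2 in 5-week males (-0.0066) and 25-week females (-0.0016). With 1 library left out the sign also changed for Fbln1 with age in WT (-0.0332 to 0.0988) and in Col6a2-/- mice (-0.0505 to 0.185), for Fbln5 at 25 weeks (-0.0047 to 0.274), and in 25-week females for Efemp2 (-0.0103 to 0.129) and Fbln1 (-0.141 to 0.315). Under settings other than leaving out 1 library, 688 other single-gene values kept their direction and side of the threshold, 52 lost a call and 8 gained one; with 1 library left out these numbers were 2107, 106 and 19. These numbers leave out sex and the genotype interactions. Within-sex changes were counted only for genes called within a sex, and sex by age only for Fbn1 and Mfap4. Part of the values was thus chosen by outcome, and the numbers are no full count of stability.

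After removal of group means, same-numbered libraries of different groups had a mean correlation of 0.031 (-0.340 to 0.349 over 112 pairs). For libraries with other numbers the mean was -0.010. Of the 32 libraries, 14 were closest to their own number among the 4 numbers. Whether the numbers mark a pairing was not tested. With the replicate block 5 members were called at 5 weeks, 3 at 25 weeks, 7 with age in WT and 8 in Col6a2-/- mice, with 3293, 658, 2587 and 4416 genes in all. Depth is inferred, so the precision of the lowest levels, those of Fbn2 and of Mfap2 at 25 weeks, is not known.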
